A study of Mus musculus with 68 samples.

Results

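Intermediate progenitors (IPs) of the early and the late mouse cerebral cortex were compared, 3 single cells of embryonic day 11 (E11) with 10 of E16. These 13 cells, of 68 in the series, were chosen by name as the cells that the study classed as IPs, namely the E11 cells 41G, 42M and 45O and the E16 cells 71E, 72J, 73A, 75A, 75O, 76C, 76J, 81O, 82H and 82P. The study classed them by clustering these same arrays on a fixed group of probe sets, so the level of an IP or apical progenitor (AP) marker gene checks the name and is no finding. The cells came from CD1 mice with no genotype or treatment set apart, and neither the embryo nor its sex is given. At E11 they were dissociated from the dorso-lateral cerebral wall and at E16 from fragments of the ventricular and subventricular zones of the same region, picked by hand at random and kept where quantitative PCR of marker genes marked them as progenitors. The cDNA of each cell was amplified and hybridized to 1 whole-genome Affymetrix array. The other 27 E11 and 18 E16 cells of the series, whose type the labels do not give and most of which the study classed as APs, are given beside the IPs as medians and are called the other cells.

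IPs are born when an AP, which divides at the ventricular surface, gives rise to a daughter that leaves the surface and divides away from it, mostly into neurons. They switch on the transcription factor gene Eomes (Tbr2), present Notch ligands to the APs around them, and shut down the radial glial genes of their mother cell. APs change over the same days from early cells that make deep-layer neurons to late cells that make upper-layer neurons and then glia, and the temporal genes of that change are the ones read in the IPs here.

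Each group counted as 1 sample, because each array holds 1 cell and the labels name no embryo or litter. No test was therefore made and no p-value is given. Means are over cells and SDs are the spread between cells. An RNA spiked in at 20 copies per cell had a median signal of 842, or 9.72 on the log2 scale, and a gene at or above that level is called over 20 copies. Between 2594 and 2871 genes were over it in each E11 IP and between 2680 and 2850 in each E16 IP. Before normalization the trimmed mean signal of the arrays ran from 95.6 to 173.5 in the E11 IPs and from 47.5 to 217.7 in the E16 IPs, with the lowest values in 75A (47.5) and 75O (55.2). The 20-copy spike itself had a median signal of 2573 in E11 IPs and 626 in E16 IPs, with ranges of 828 to 3147 and 358 to 6636, and the 1000-copy spike medians of 9257 and 8644. The part of these array values in the differences below was not tested. No pair of cells held identical values. Across genes, which are not independent replicates, signals of cell pairs correlated with medians of 0.451 within E11, 0.452 within E16 and 0.425 between the stages, all on the same platform and normalization.

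Most IP markers held at both stages, with exceptions among E16 cells, in which some AP markers were also over 20 copies. Eomes was over 20 copies in 3 of 3 E11 IPs and 8 of 10 E16 IPs, the exceptions being 76C at 8.64 and 82H at 8.37. Hes6 was over in all 13, Insm1, Neurog2 and Gadd45g in 3 of 3 and 9 of 10, and Elavl4, an RNA-binding protein gene of neurons, in 2 of 3 and 1 of 10. Of the AP markers, Slc1a3 was over 20 copies in 0 of 13 cells and Ttyh1 in 0 of 3 and 2 of 10. Sox2 was over in 3 of 3 and 7 of 10, Pax6 in 1 of 3 and 7 of 10, Id4 in 0 of 3 and 5 of 10, and Fabp7 in 0 of 3 and 10 of 10. The mean over the 17 genes of the AP list ranged from 4.31 to 5.54 in the E11 IPs and from 4.97 to 10.59 in the E16 IPs, highest in 81O.

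The question put to all 10789 measured genes was which differ between late and early IPs. A pair of readings was used. A gene was called past the fold if its higher mean was over 20 copies and at least 2-fold above the lower mean, itself raised to the 20-copy level where it lay below. A gene was called not overlapping if every cell of one stage lay above every cell of the other and the higher mean was over 20 copies. In E16 IPs 173 genes were higher past the fold (1.60%) and 507 were lower (4.70%), together 6.30% of genes. Not overlapping were 34 genes higher (0.315%) and 58 lower (0.538%) at E16, together 0.853%. With signals first raised to the 20-copy level, 13 of the 34 and 50 of the 58 still did not overlap. Both readings held for 20 genes higher and 45 lower, 65 in all (0.602%).

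Without 41G 112 genes were higher past the fold, and leaving out any 1 of the 3 E11 cells raised the counts without overlap, to between 52 and 74 higher and between 154 and 171 lower. The means rest on unequal numbers of cells, 3 and 10, and the split between lower and higher genes is not read as a finding. The mean of the E11 IPs reached 20 copies for 1568 genes and that of the E16 IPs for 1208. Only the first could be called lower past the fold and only the second higher. The shares of all genes given beside the lists below include the genes that could not be called. A list with many genes over 20 copies is therefore not matched to those shares. Over all genes 5614 were higher and 5175 lower at E16, and the median difference was 0.09 on the log2 scale. With the deposited signals left unscaled that median was 0.33, and with each array scaled to its 1000-copy spike it was 0.30. The differences below are from the quantile-normalized signals. A single cell decided many calls. With each of the 13 cells left out in turn, 52 of the 173 higher and 269 of the 507 lower genes were past the fold each time, against 18 of 20 and 34 of 45 of those that also did not overlap.

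**Figure D1:**
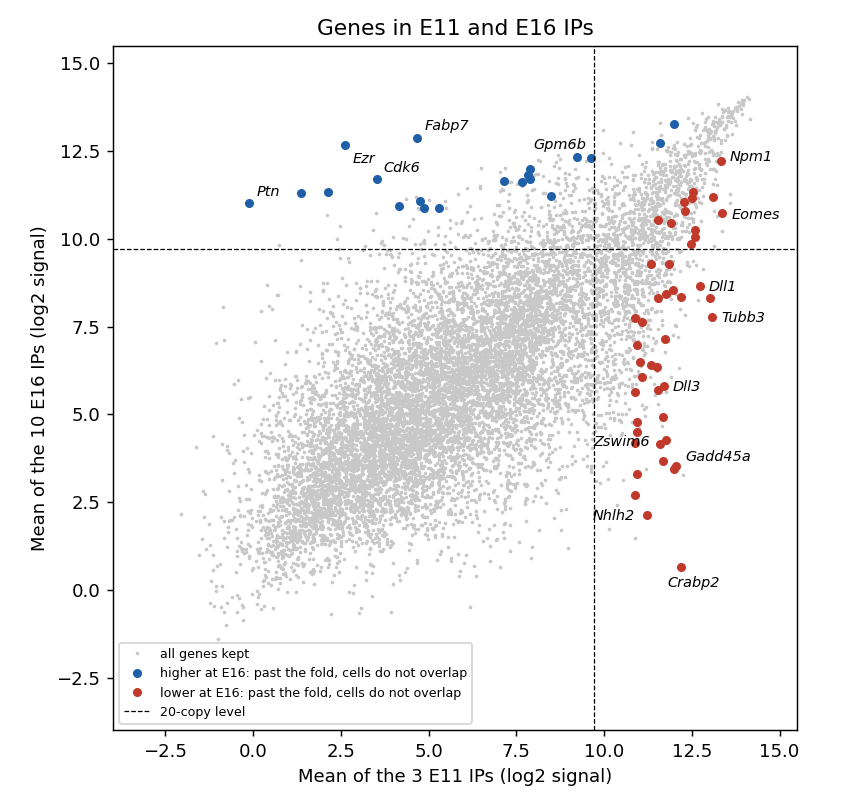
Mean signal of 10789 genes in the 3 E11 IPs (x axis, log2) and the 10 E16 IPs (y axis, log2), with dashed lines at the 20-copy level of 9.72. Blue points are the 20 genes and red points the 45 genes that were past the fold and did not overlap, higher and lower at E16. Crabp2 lies lowest among the red points, at 12.20 in E11 IPs and 0.66 in E16 IPs.

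Genes that mark commitment of an IP were lower in the E16 cells. Of 16 such genes listed, 15 were measured, 14 had a lower mean at E16 and 1, Neurod4, a higher one, with a median difference of -1.89 against 0.09 over all genes. Past the fold and lower were 7 of 15, against 4.70% of all genes, and 4 of these, Eomes, Dll1, Dll3 and Mfng, did not overlap. Eomes was at 13.51 in 41G, 13.37 in 42M and 13.23 in 45O, and in E16 IPs ran from 8.37 over a median of 11.02 to 12.30. The 3 E11 cells lay close together, and every E16 cell was below them. The difference of -2.64 is 6.22-fold. Its other probe set had means of 12.10 and 8.35, and on it the stages overlapped. There the highest E16 cell was at 12.13, above 41G at 11.84 and 45O at 11.82. Eomes took part in naming the cells, and other genes of this list, such as Hes6 and Gadd45g, mark the same label. The list is therefore not independent of the naming. Its differences between stages and its count of 7 of 15 are a description of these cells as they were chosen.

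Notch ligands and their modifiers stood out within that list. Dll1, which activates Notch on neighbouring cells, was at 12.62, 13.14 and 12.44 in E11 IPs 41G, 42M and 45O, and from 3.91 to 12.22 with a median of 9.23 at E16. It was over 20 copies in 3 of 3 early and 5 of 10 late IPs, at least 8.07-fold lower in the late ones. Dll3, a divergent ligand that dampens Notch within its own cell, was at 10.92, 11.78 and 12.40 at E11. Its highest E16 cell was at 8.93, so that 0 of 10 late IPs were over 20 copies and the mean was at least 3.95-fold lower. Mfng, a fringe glycosyltransferase that modifies Notch receptors, was nearly the same in the early cells, at 12.25, 12.31 and 12.30, and had an E16 median of 11.38 and a highest value of 12.10. Its 2.33-fold difference came to a log2 difference of -0.998 without 72J, just under the fold.

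The Notch list as a whole was evenly split. Of 22 Notch genes measured of 24 listed, 11 were higher and 11 lower at E16 (median difference 0.16). Past the fold were 5, all lower, namely Dll1, Dll3, Mfng, Hes6 and Rbpj, where 4.70% of all genes were. Of the 22, 7 had a mean over 20 copies in at least 1 stage. All of the 5 but Rbpj are also in the commitment list, which is not independent of the naming. Rbpj, the DNA-binding partner of the Notch intracellular domain, had means of 10.80 and 9.43, which fell under the fold without 45O or without 76J. The receptor gene Notch1 was over 20 copies in 1 of 3 E11 IPs and 7 of 10 E16 IPs, at least 1.99-fold higher and so just under the fold, and Nrarp, a feedback target, in 0 of 3 and 5 of 10. The targets Hes1 and Hes5 were over in 0 of 3 early IPs and in 1 and 3 of 10 late ones.

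Hes6, Gadd45g and Sstr2 were the other members of the commitment list past the fold, and their cells overlapped between stages. Hes6, which antagonizes Hes1, was at 12.82, 12.83 and 11.35 at E11 and from 9.77 to 12.35 at E16, under the fold without 41G or 42M. Gadd45g had means of 12.49 and 10.60, a difference of -1.89 that was -1.18 without 72J, in which it was at 4.14. Sstr2, a somatostatin receptor, reached 20 copies in 3 of 3 early and 4 of 10 late cells, and fell under the fold without 41G. Insm1, Neurog2, Btg2 and Lzts1 differed by -0.67, -0.91, -0.50 and -0.79, less than the spread between E16 cells. The proneural gene Neurog1 was high in 41G and 42M, at 12.37 and 10.88, at 1.01 in 45O, and over 20 copies in 0 of 10 E16 IPs.

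Early IPs also carried neuronal transcripts at levels few late IPs reached. Tubb3, the neuronal beta-tubulin, was at 13.04, 12.91 and 13.28 at E11. At E16 it ran from 0.46 over a median of 9.93 to 12.10, with 5 of 10 cells over 20 copies and 75O, 76C and 82P lowest at 0.46, 2.30 and 0.79. No late cell reached the lowest early one, and the mean was at least 10.3-fold lower. Nhlh2, a basic helix-loop-helix factor of young neurons, was at 12.66, 9.27 and 11.76 at E11, and its highest E16 cell, 72J, was at 8.51, but it lost the fold without 41G. Neurod1, another factor of that family, was over 20 copies in 3 of 3 early and 4 of 10 late cells with means of 12.15 and 6.32, and the late cells ranged from 0.08 to 12.24.

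Other neuronal genes did not follow Tubb3. Of 22 neuronal genes measured of 24 listed, 9 were higher and 13 lower at E16 (median difference -0.30), and 5 were past the fold, all lower, against 4.70% of all genes. Besides Tubb3 and Neurod1 these were the RNA-binding protein gene Elavl2, Map2 and Dpysl3, each overlapping between stages. Elavl2 was at -0.98 in 76C and at or above 9.25 in the other E16 cells, and its difference of -2.51 was -1.33 without 76C. The count of 5 was 8 without 42M and 3 without 75A. Map2 fell under the fold without 75A, and Dpysl3 without any of 5 cells, among them 82P, where it was lowest. Neurod6, a factor of cortical excitatory neurons, went the other way in its means, at 4.13 and 9.48, and was over 20 copies in 1 of 3 early and 7 of 10 late IPs. Stmn1, Sox4 and Sox11 were over 20 copies in all 13 cells, with differences of -0.08, -0.82 and -0.55. On another Sox11 probe set the means were 11.73 and 8.74, lower past the fold with overlap, so the probe sets of Sox11 disagree.

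Among the 15 genes most different in the higher direction were Fabp7 and Ezr. Fabp7, the brain fatty acid binding protein and a radial glial marker, was at 4.57 in 41G, 1.49 in 42M and 7.98 in 45O. In the E16 IPs it ran from 11.54 over a median of 13.04 to 13.89, so that all 10 were over 20 copies and no E11 IP was, with means of 4.68 and 12.89. Ezr, which links membrane proteins to the actin cortex, was at 2.17, 2.96 and 2.73 in the early cells and from 11.68 to 13.34 in the late ones, at least 7.77-fold higher. The SDs between E16 cells were 0.74 for Fabp7 and 0.55 for Ezr.

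Among the other 13, Sfrp1, Gpm6b, Ptn and Plxnb2 encode secreted or membrane proteins. Sfrp1, a secreted Wnt antagonist, was at 10.67, 8.30 and 8.70 at E11 and from 11.05 to 13.18 at E16. Gpm6b, a proteolipid-family membrane glycoprotein, was at 10.01, 11.32 and 7.59 at E11, and the late cells lay between 11.84 and 12.65, with a difference of 2.66 that was 1.63 without 45O. Ptn (pleiotrophin), a secreted growth factor of radial glia, was at -1.77, -2.24 and 3.65 in the early IPs and from 9.64 to 13.17 in the late ones. Plxnb2, a receptor of class 4 semaphorins, had a difference of 4.53 that was 1.93 without 41G, in which it was at 1.93, the other early cells being at 10.17 and 9.30 and the lowest late cell at 10.64. In none of these did an early IP reach the lowest late one.

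Among intracellular genes, Cdk6, the kinase that acts with D cyclins in G1, was at 4.01, 4.65 and 1.90 in E11 IPs and from 9.03 over a median of 12.03 to 13.32 in E16 IPs, at least 3.97-fold higher. The tyrosine phosphatase gene Ptpn12 reached 20 copies in none of the early and 9 of 10 late cells. Pantr1, a noncoding RNA gene next to Pou3f3, was over in 0 of 3 and 8 of 10, and Pou3f3 itself, a POU factor of upper-layer lineages, was at 11.54, 11.86 and 12.61 at E11 and from 12.75 to 13.73 at E16. The difference of Pou3f3 was 2.41-fold with no overlap, although all 13 cells were over 20 copies. The remaining genes of the 15 most different were Bcas2 of the spliceosome, Romo1 and Tmem223 of mitochondria, the dynactin subunit gene Dctn6, the kinase gene Cdk16 and the actin-capping gene Capzb, with lower bounds on the fold from 2.57 to 3.96. Of these, Bcas2 and Romo1 had differences of 3.81 and 3.96 that were 2.37 and 2.16 without 41G. Meis2, Cdon, Epha4, Dbi, Fbl and Ccnd2 were also higher past the fold, with cells that overlapped. Of these, Ccnd2, Fbl and Dbi lost that without 41G and Dbi also without 71E or 81O, and the difference of 2.68 in Cdon was 1.43 without 41G.

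**Figure D2:**
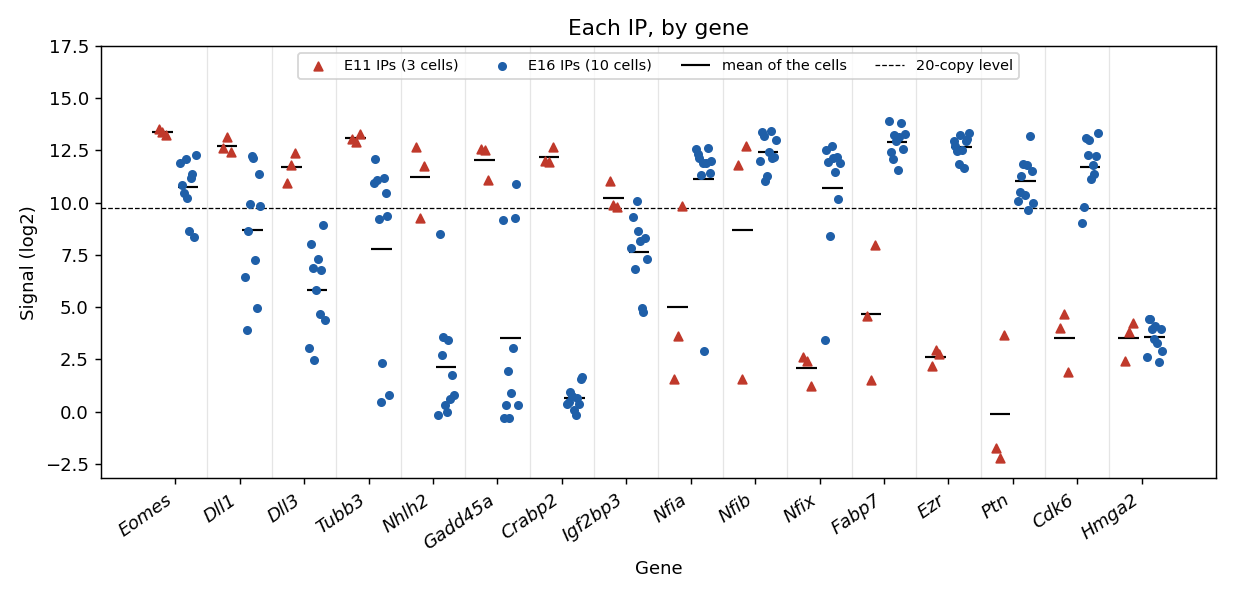
Signal (y axis, log2) of 16 genes in each of the 3 E11 IPs (red triangles) and 10 E16 IPs (blue points), with bars at the means over cells and a dashed line at the 20-copy level of 9.72. Each gene is drawn on its brightest probe set. The groups are apart for Eomes, Dll1, Dll3, Tubb3, Nhlh2, Gadd45a, Crabp2, Nfix, Fabp7, Ezr, Ptn and Cdk6, overlap for Igf2bp3, Nfia and Nfib, and lie at the same low level for Hmga2.

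The genes by which the study tells early from late progenitors were next read in the IPs. The 9 genes of the early side and the 9 of the late side were chosen on E11 and E14 cells, among them the E11 IPs, so their direction between E11 and later is not independent of the choice. All 9 early genes had a lower mean at E16 (median difference -5.20) and all 9 late genes a higher one (5.57). With signals first raised to the 20-copy level, these medians were -0.52 and 0.65. On their brightest probe sets only 3 of the 18 were past the fold, Crabp2 and Tubb3 lower and Ptn higher, and these 3 did not overlap. Of all genes 6.30% were past the fold and 0.853% did not overlap, in either direction. Crabp2, a carrier of retinoic acid, was over 20 copies in all 3 early IPs and in none of the 10 late ones. It was at 11.97 in 41G, 11.96 in 42M and 12.68 in 45O, while the E16 cells ran from -0.16 over a median of 0.55 to 1.65. The mean was at least 5.59-fold lower, and every late cell was far under the 20-copy level.

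The E11 IPs differed among themselves in the other early genes. In 45O, Dmrt3 (12.68), Lrrn1 (10.41), Fndc3c1 (10.86) and Sulf2 were over 20 copies. In 41G, Lrrn1 (10.24), Sulf2 (10.40) and Flrt3 (11.28) were. In 42M none of these 5 was over, and Flrt3 was at -0.29. Dmrt3 and Dmrta1 encode doublesex-related factors of the early dorsal forebrain, Sulf2 edits heparan sulfate, and Lrrn1 and Flrt3 are leucine-rich repeat membrane proteins. Among the 10 E16 IPs each of Lrrn1 and Sulf2 was over 20 copies in 1 cell and Dmrt3, Dmrta1, Fndc3c1, Flrt3 and Chst2 in 0.

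The late genes were on in some E16 IPs and not others. Rlbp1, a retinaldehyde binding protein, was over 20 copies in 6 of 10 and Epha5, an ephrin receptor, in 6 of 10. Zbtb20, a repressor that favours late fates, was over in 5, Aldoc and Pag1 in 3, Ednrb and Adgrb3 in 2 and Sema5a in 1. These readings are on the brightest probe set of each gene. On another Zbtb20 probe set, with means of 1.36 and 10.62, the stages did not overlap, though the difference was not past the fold. On the other Zbtb20 probe sets that the study listed for APs, the E16 mean was under 20 copies. Ptn was over in 9 of 10. None of the 9 was over 20 copies in any E11 IP, and no E11 IP value exceeded 6.03, that of Zbtb20 in 41G. The medians over E16 IPs were below those of the other E16 cells for 6 of the 9, for instance 5.07 against 11.68 for Pag1, 1.91 against 10.70 for Ednrb and 9.15 against 13.09 for Aldoc, and above them for Zbtb20, Epha5 and Sema5a.

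Genes of the heterochronic pathway, which times development in animals and was first described in worms, gave a mixed picture. Hmga2, a chromatin protein of early neural progenitors, was over 20 copies in 22 of the 27 other E11 cells, with a median of 12.66. In the 3 E11 IPs it was at 2.43, 3.82 and 4.25, no higher than in the E16 IPs, which ran from 2.38 to 4.43. On a second probe set it had a median of 12.06 in the other E11 cells and values of -0.49, 0.83 and 1.08 in the 3 IPs. The difference between IPs and the other cells at E11 was not tested. Igf2bp3, an RNA-binding protein of fetal tissues, was over in 3 of 3 early IPs, at 11.02, 9.90 and 9.80, and in 1 of 10 late ones, 75A at 10.10. Igf2bp1 and Dicer1 were over in 1 of 3 early IPs each and in 0 and 1 of 10 late ones. On the brightest probe set of each gene, 0 of the 5 genes measured of 10 listed were past the fold.

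Nuclear factor I genes, which drive gliogenesis and late progenitor fates, had higher means in late IPs for Nfia, Nfib and Nfix. The means of Nfic, 3.90 and 4.11, lay under the 20-copy level, where signals carry no order. The median difference of the 4 members was 4.90, and it was 3.07 without 42M and 6.94 without 45O. Nfix was at 2.63, 2.41 and 1.24 at E11 and from 3.40 over a median of 11.92 to 12.72 at E16, over 20 copies in 8 of 10, with 71E lowest. It did not overlap, at least 1.95-fold higher on this probe set, which is just under the fold, while 2 further Nfix probe sets had means of 1.44 and 10.81 and of 1.53 and 10.91. The lack of overlap rests on 71E at 3.40 against 41G at 2.63, both under the 20-copy level. Nfia was at 1.57, 3.62 and 9.83 at E11 and above 11.3 in all E16 cells but 76C, which was at 2.91. On its brightest probe set Nfib was already at 11.82 in 41G and 12.71 in 45O, within the E16 range of 11.06 to 13.43. There only 42M was low, at 1.56, and the difference of 3.70 was 0.14 without 42M. On 2 further Nfib probe sets 41G was low too, at 1.90 and 4.79. On these 42M was at 1.76 and 0.97 and 45O at 11.68 and 11.54, against E16 medians of 11.23 and 10.02. Nfic was over 20 copies in no IP.

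Late radial glial and astroglial genes leaned the same way. Of 17 measured of 21 listed, 14 were higher, with a median difference of 1.93. Only 4 of the 17 had a mean over 20 copies in at least 1 stage, so most of these directions rest on signals under that level. Past the fold and higher were 2, Fabp7 and Dbi, against 1.60% of all genes. Ptprz1, a receptor of pleiotrophin, was over 20 copies in 0 of 3 early and 7 of 10 late IPs, and Tnc (tenascin C) in 0 of 3 and in 71E, 81O and 82H at E16. Mt3, a metallothionein of the brain, was at 1.05, 2.14 and 0.87 in E11 IPs and from 5.95 to 12.85 in E16 IPs. Gfap, the astrocyte filament gene, was over in no cell. The AP list itself had 15 of 17 higher and a median of 2.27, which was 0.14 with signals first raised to the 20-copy level. In this list 6 of the 17 had a mean over 20 copies in at least 1 stage. Past the fold were 3 genes, Fabp7 and Cdon higher and Sox2 lower, against 1.60% and 4.70% of all genes. Sox2 lost the fold without 72J.

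**Figure D3:**
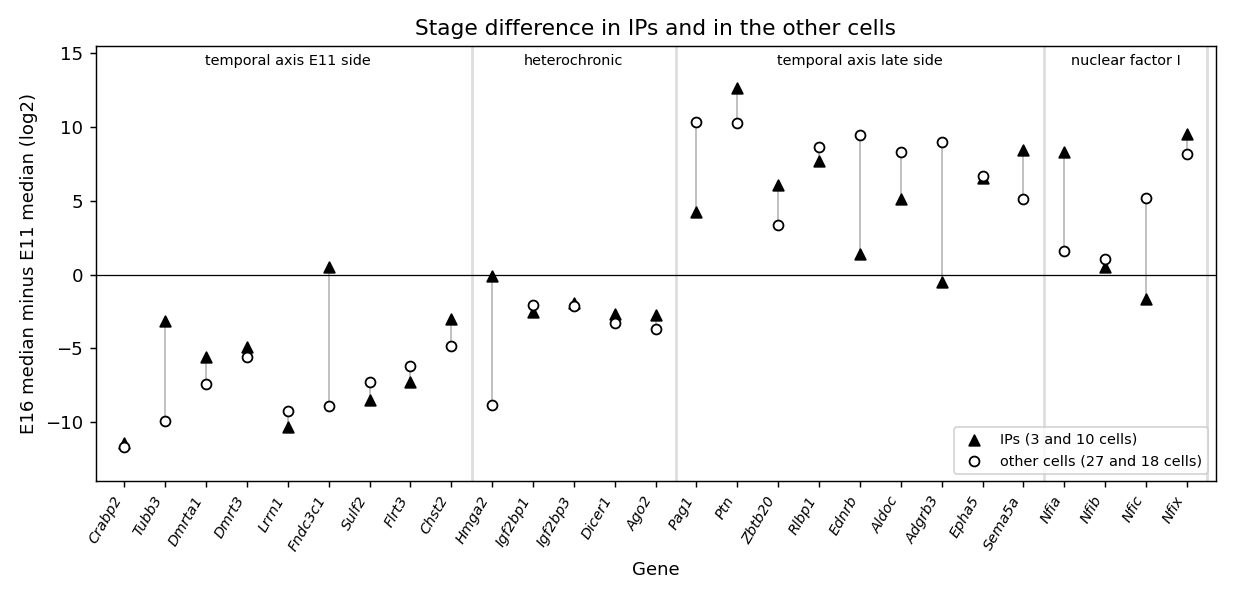
Difference of the E16 median minus the E11 median (y axis, log2) for genes of the temporal axis, the heterochronic pathway and the nuclear factor I family, in IPs (triangles, 3 and 10 cells) and in the other cells (circles, 27 and 18 cells). The 2 agree closely for Crabp2, while for Hmga2 the IPs lie near 0 and the other cells far below it.

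The wider lists of probe sets that the study found to differ between stages in APs were then read in the IPs, which had no part in choosing them. Of 227 measured probe sets higher in APs at E14 than at E11, 190 (83.7%) were higher in E16 than in E11 IPs, with a median difference of 2.64 (0.18 with signals first raised to the 20-copy level), where 51.2% of all 20721 probe sets were higher and their median was 0.05. Past the fold and higher were 10 of 227, against 1.28% of all probe sets, and 9 did not overlap, against 0.198%. Past the fold with no overlap were probe sets of Fabp7, Nfix (2), Cdk6, Ptn, Pantr1 and Acat1, past it with overlap those of Tox3, Celsr1 and Rtn1, and without overlap but not past it 1 each of Nfix and Zbtb20. Another 3 probe sets went the other way past the fold (3.52% of all probe sets did), those of Sh3glb1, Cdkn2d and Sertad4.

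The opposite list was less one-sided in IPs. Of 74 probe sets lower in APs at E14, 42 were lower and 32 higher in E16 IPs, with a median of -0.74. Lower past the fold were 4, Crabp2, Tubb3, Tle4 and Pak3, against 3.52% of all probe sets. The first 2 did not overlap (0.420% of all probe sets did not, lower at E16). For the later step in APs, from E14 to E16, 29 of 35 higher probe sets (82.9%) were higher in E16 IPs, with a median of 1.48 and none past the fold. The 72 lower ones were split, 35 lower and 37 higher, with a median of 0.05. Past the fold and lower were 7 of the 72, against 3.52% of all probe sets, among them probe sets of Xist, Igsf9, Nnt and Sox11 and 3 with no single symbol.

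A stage score, the mean of the 227 late minus the mean of the 74 early probe sets, was computed in each cell. It was -1.29 in 41G, -1.12 in 42M and -3.17 in 45O, and in E16 IPs it ran from 1.34 over a median of 1.80 to 4.18 in 81O, with no overlap. Most probe sets of both lists were under the 20-copy level in every IP. With signals first raised to that level, a choice made after the data were seen, the score was -0.21, -0.09 and -0.32 in the E11 IPs and from 0.15 to 0.69 in the E16 IPs, again with no overlap. Of the 227 late probe sets 29, 28 and 20 were over 20 copies in 41G, 42M and 45O and between 49 and 109 in the E16 IPs. Of the 74 early ones 22, 14 and 23 were over in the E11 IPs and between 5 and 15 in the E16 IPs, which overlap. As measured, the mean of the late list was 3.57, 3.59 and 3.38 in the E11 IPs and from 5.11 to 8.09 in the E16 IPs. The mean of the early list was 4.86, 4.71 and 6.55 in the E11 IPs, against a highest E16 IP of 4.62. In the other cells, some of which chose the lists so that their values are a description, the score had medians of -4.79 at E11 and 3.64 at E16. The other E11 cells had an early-list median of 8.56 with a range of 4.67 to 9.58, so that the 3 IPs lay in its lower part, and a late-list median of 3.58 like that of the IPs. At E16 the late-list median was 7.90 in the other cells and 5.78 in the IPs.

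**Figure D4:**
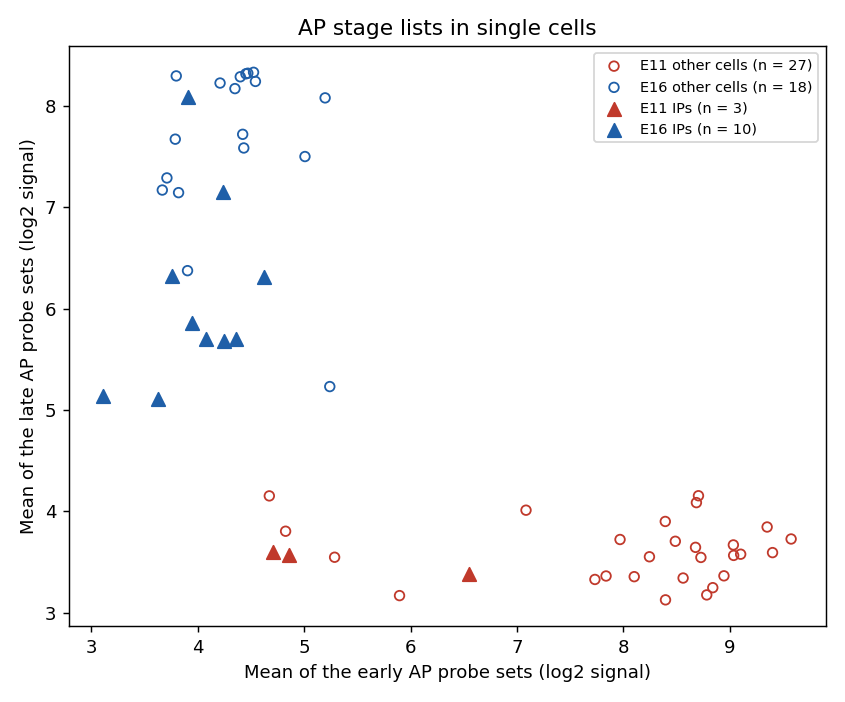
Mean signal of the 74 early (x axis, log2) and 227 late (y axis, log2) AP probe sets in each E11 cell (red) and E16 cell (blue), with IPs as filled triangles and the other cells as open circles. The E11 IPs lie at the bottom, 42M and 41G left of most other E11 cells, and the E16 IPs lie above every E11 cell and mostly below the other E16 cells.

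Cell cycle genes were lower in late IPs on average, and the late cells were split. Of 25 G2/M genes measured of 26 listed, 23 had a lower mean at E16 (median difference -1.95), and 17 were lower past the fold, against 4.70% of all genes. Without 45O 11 were. None of the 25 was without overlap. In 42M and 45O all 25 were over 20 copies and in 41G 12 were. Among E16 IPs 25 were over in 75O and 82P, 24 in 73A, 23 in 76C and 82H, and 21 in 81O. Only 4 were over in each of 71E, 72J and 75A, and 1 in 76J. The other cells had medians of 20 and 18.5 at E11 and E16, each from 0 to 24, so cells with few G2/M genes over the level were found at both stages there.

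Single genes showed the same split of cells. Cenpf, a kinetochore protein that rises in G2, was at 11.79, 13.16 and 12.93 at E11. At E16 it was between 4.26 and 4.63 in 71E, 72J, 75A and 76J and between 9.96 and 13.36 in the other 6. Mki67, the Ki-67 proliferation antigen, was at 11.84, 12.51 and 12.89 in early IPs and over 20 copies in 7 of 10 late ones, with 0.41 in 72J and 3.32 in 76J. Top2a, the topoisomerase that untangles chromosomes before mitosis, was over in 3 of 3 and 8 of 10. Ccnb2, a mitotic cyclin, was at 9.14 in 41G, 11.96 in 42M and 12.44 in 45O and over in 7 of 10 late cells, and its 2.05-fold difference fell under the fold when any of 42M, 45O, 71E, 72J or 76J was left out. Bub1b, Cenpe and Prc1 also lost the fold without 42M or without 45O, Ube2c without either of these or any of 71E, 72J, 75A and 76J, and Hmgb2 without 45O or 72J.

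**Figure D5:**
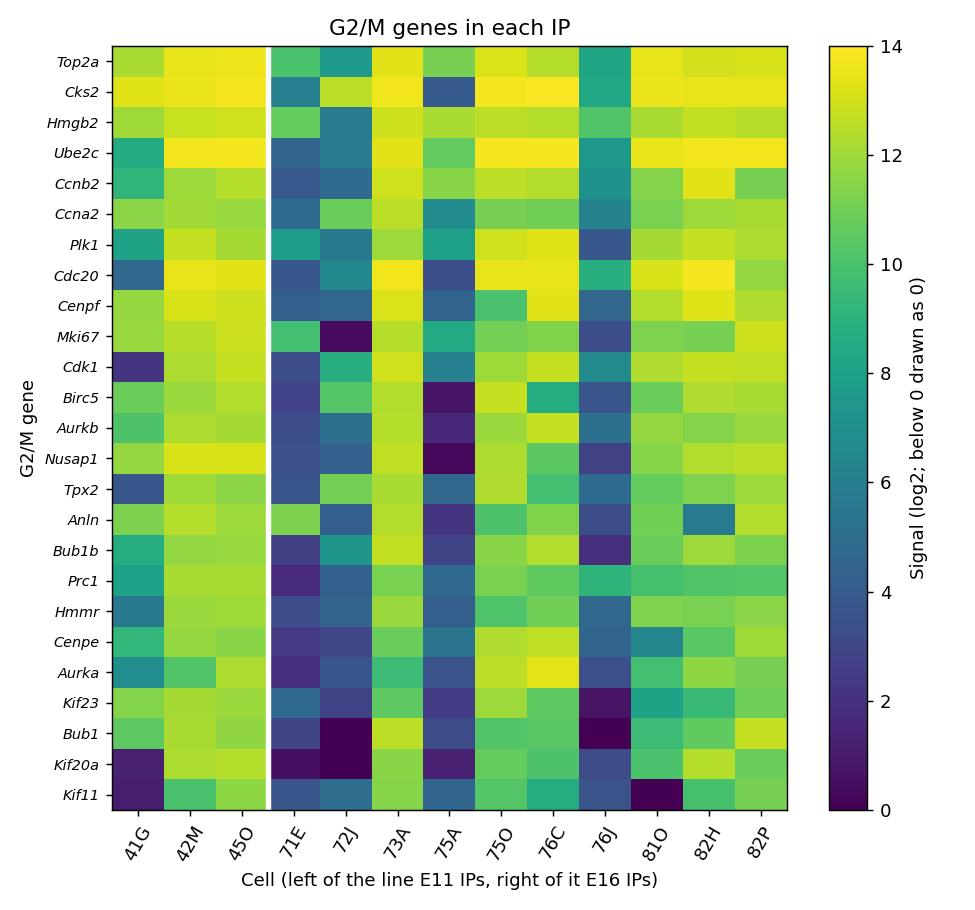
Signal (colour, log2) of the 25 G2/M genes (rows, by mean over the 13 cells) in each IP (columns), E11 left of the white line and E16 right of it. Columns 71E, 72J, 75A and 76J are dark through most rows, 41G is mixed, and the other 8 are bright in most.

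The promoters of G2/M genes are shown because this list moved together from cell to cell and such promoters often carry CCAAT boxes, which bind NF-Y, and a cell cycle homology region (CHR, TTTGAA), which binds the DREAM and MuvB complexes. Each is 300 bases from RefSeq on the GRCm38.p6 build, 250 before the annotated start and 50 after it, 5′ to 3′ on the strand of the gene, with CCAAT or TTTGAA on either strand in capitals. They are those of Cenpf (chr1:189688037-189688336, minus strand), Mki67 (chr7:135716330-135716629, minus strand), Ccnb2 (chr9:70421505-70421804, minus strand) and Top2a (chr11:99024140-99024439, minus strand).
Cenpf: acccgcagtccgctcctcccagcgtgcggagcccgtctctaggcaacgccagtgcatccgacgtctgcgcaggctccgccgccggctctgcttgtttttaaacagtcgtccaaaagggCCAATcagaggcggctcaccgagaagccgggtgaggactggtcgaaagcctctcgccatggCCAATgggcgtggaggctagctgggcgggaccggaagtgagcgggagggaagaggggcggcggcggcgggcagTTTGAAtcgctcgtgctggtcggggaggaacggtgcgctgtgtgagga
Mki67: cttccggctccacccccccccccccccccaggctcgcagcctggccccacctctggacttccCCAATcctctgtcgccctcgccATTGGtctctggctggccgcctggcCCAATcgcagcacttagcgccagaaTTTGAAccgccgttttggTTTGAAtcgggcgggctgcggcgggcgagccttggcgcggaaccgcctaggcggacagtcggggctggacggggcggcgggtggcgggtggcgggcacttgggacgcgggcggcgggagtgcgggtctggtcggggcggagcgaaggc
Ccnb2: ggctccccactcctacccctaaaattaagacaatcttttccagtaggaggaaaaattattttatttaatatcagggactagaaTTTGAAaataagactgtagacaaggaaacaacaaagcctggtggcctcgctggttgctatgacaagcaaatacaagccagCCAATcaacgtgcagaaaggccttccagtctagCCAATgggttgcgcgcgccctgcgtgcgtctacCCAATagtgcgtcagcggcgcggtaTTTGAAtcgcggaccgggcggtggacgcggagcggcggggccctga
Top2a: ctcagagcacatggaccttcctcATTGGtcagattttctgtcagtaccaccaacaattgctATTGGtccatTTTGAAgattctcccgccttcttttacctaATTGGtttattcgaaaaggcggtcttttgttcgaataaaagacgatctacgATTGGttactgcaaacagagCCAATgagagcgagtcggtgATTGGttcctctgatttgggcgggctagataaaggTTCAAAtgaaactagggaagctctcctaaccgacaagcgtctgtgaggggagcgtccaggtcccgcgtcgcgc

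The CCAAT letters, on either strand, occur 2 times in the Cenpf window, 3 times in those of Mki67 and Ccnb2 and 6 times in that of Top2a. The CHR letters occur once in Cenpf and 2 times in each of the other 3, and no match overlaps another in these windows. Of the 25 measured G2/M genes 21 had a promoter in the RefSeq table, of which 18 held the CCAAT box, 16 the CHR and 15 both. Over all 27025 genes with a promoter of this length the shares were 41.1%, 20.2% and 7.97% in that order. Among the 17 genes lower past the fold, 15 had a promoter and 12, 10 and 9 of these held the CCAAT box, the CHR and both. A match in these letters describes the window and is no evidence of binding.

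G1/S genes did not move as one. Of 26 measured, 10 were higher and 16 lower at E16 with a median of -0.33. Past the fold 2 were higher and 5 lower, against 1.60% and 4.70% of all genes. The count of lower ones was 3 without 41G or without 76J. Cdk6 and Ccnd2 were the higher ones. Ccnd2, cyclin D2, is known for its transcript in cortical progenitors, and was at 4.43 in 41G, 12.96 in 42M and 12.32 in 45O against an E16 median of 12.10. Its difference was 1.74, and -0.997 without 41G. The lower ones were the replication genes Rrm1, Rrm2, Pcna, Mcm5 and Slbp. Rrm2, a subunit of ribonucleotide reductase, was at 12.87, 12.97 and 13.56 in early IPs and over 20 copies in 7 of 10 late ones, with a difference of -3.32, and the other 4 each lost the fold when 1 cell was left out, Rrm1 without 42M, 76C or 76J, Mcm5 without 72J, Slbp without 41G and Pcna without 41G, 76J or 82H.

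Of 13 CDK inhibitor and growth arrest genes measured, 5 were higher and 8 lower in late IPs (median difference -0.66). Past the fold were 4, all lower, Gadd45a, Gadd45g, Ccng2 and Cdkn2d, against 4.70% of all genes. Gadd45a, a stress-response and growth arrest gene, was at 12.57, 12.49 and 11.09 in E11 IPs. In E16 IPs it ran from -0.33 over a median of 1.42 to 10.88, with 1 of 10 over 20 copies, at least 5.04-fold lower and with no overlap. It was over in 5 of 27 other E11 cells and 0 of 18 other E16 cells. Ccng2 was at 3.20 in 82H and at or above 10.51 in the other E16 cells, and lost the fold without 82H. Cdkn2d, an inhibitor of Cdk4 and Cdk6, lost the fold without 42M. Cdkn1c (p57), which was not past the fold, was at 8.70, 10.79 and 12.16 at E11 and over in 1 of 10 late IPs.

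The rest of the 15 genes most different in the lower direction had general roles. Igfbp2, a binding protein of insulin-like growth factors, was at 13.35, 12.71 and 13.03 in E11 IPs and from 3.95 over a median of 9.02 to 12.12 in E16 IPs, at least 9.91-fold lower. Its median in the other cells was 11.64 at E11 and 11.41 at E16. Snrpb2 of the U2 snRNP, Kpnb1 (importin beta) and Mapk6 (ERK3), with means over 20 copies at both stages, were 6.23-, 5.78- and 5.04-fold lower. By medians over cells the log2 differences were -1.07 for Snrpb2 and -1.76 for Kpnb1, against -2.64 and -2.53 by means, and in 76J Kpnb1 was at 4.14. Hsp90b1, an endoplasmic reticulum chaperone, Brca1, a DNA repair gene, Smarca5, an ISWI remodelling ATPase, Ehmt1, a histone H3K9 methyltransferase, Trip12, a ubiquitin ligase, and Zswim6 were lower by at least 4.11- to 5.56-fold. Zswim6 was at 11.84, 11.72 and 11.70 in the early IPs, over 20 copies in 0 of 10 late IPs and at 9.12 at most. Brca1 was over in 2 of 10.

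Lists of regional, laminar and growth genes held few calls, where 1.60% of all genes were higher and 4.70% lower past the fold. Of 15 patterning genes measured, Meis2 was higher and Emx1 lower past the fold, and Emx1, a factor of the dorsal cortex, did not overlap, at 10.61, 10.40 and 11.61 against an E16 highest of 10.15. Without 45O it was under the fold. Of 13 deep-layer genes, Fezf2 and Tle4 were lower past the fold with overlap, and Tle4 not without 45O. Fezf2, which specifies subcerebral neurons, was at 11.12, 11.51 and 11.66 at E11 and over in 5 of 10 late cells, with a difference of -2.54 that was -1.63 without 76J. Of 13 upper-layer genes, Pou3f3 was higher and Plxna2 lower, and Plxna2 not without 45O or 75A. Pou3f1, of the same family as Pou3f3, was over 20 copies in 0 of 3 and 5 of 10, and the upper-layer gene Cux2 in 1 of 3 and 0 of 10.

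Npm1, the abundant nucleolar protein, was 2.14-fold lower with no overlap, at 13.65, 13.16 and 13.17 against an E16 highest of 13.04, and had a difference of -0.94 without 41G. In 19 ribosome biogenesis genes the median difference was 0.24 and the calls were Npm1 lower and Fbl higher. Of 28 migration and guidance genes, 1 was higher and 3 lower past the fold, against 1.60% and 4.70% of all genes, and of 10 Myc network genes none. Cdh2, N-cadherin, which holds progenitors at the apical junctions, was lower without overlap, at 11.16, 12.07 and 11.34 against an E16 highest of 10.30. It was at least 3.49-fold lower, with means of 11.52 and 8.32, and the difference was -2.11 without 75A and 75O, the arrays with the lowest signal, left out as a choice made after the data were seen. The housekeeping genes Gapdh, Actb, Eef1a1, Rplp0 and Ywhaz were over 20 copies in all 13 IPs and differed by between -0.10 and 0.02. The other 4 of the 9 measured, Hprt, Tbp, Sdha and B2m, were over in 0, 1, 1 and 0 early and 2, 4, 7 and 3 late IPs, with differences of 1.81, -1.63, 3.23 and 2.81, none past the fold.

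Beside the IPs, the same genes were read in the other cells by medians, which have many more APs and so are not a like population. Of the 173 genes higher past the fold in E16 IPs, 115 had a higher median in the other E16 than in the other E11 cells, and of the 507 lower, 351 had a lower one. Of those not overlapping it was 23 of 34 and 44 of 58, while over all genes 5205 were higher and 5584 lower. Fabp7, Ptn, Cdk6, Crabp2 and Tubb3 were in the same direction in both. Ezr was over 20 copies in 10 of 27 other E11 cells and 14 of 18 other E16 cells, against 0 of 3 and 10 of 10 IPs. Sfrp1 and Capzb, low in E11 IPs, had medians of 12.66 and 11.76 in the other E11 cells and 12.73 and 11.96 in the other E16 cells. No difference between these cells and the IPs was tested.

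The measured markers of other cell types had low means in the IPs. In lists of blood, microglia, vessels, mesenchyme, interneurons, choroid plexus and oligodendrocytes, 22 genes were measured and none had a mean over 20 copies at either stage. In single cells 3 of the 22 were over it, each in 1 IP, namely the mesenchyme gene Prrx1 in 41G at 10.88, the oligodendrocyte lineage gene Olig2 in 1 E16 IP at 11.07 and the vessel gene Egfl7 in 1 E16 IP. The defining interneuron markers Dlx1, Dlx2, Dlx5 and Gad2 and the blood marker Hba-a1 had no probe set among those kept. Nor had the microglia markers Aif1 and C1qa and the vessel marker Pecam1. Measured were 5 of 10 blood, 3 of 10 microglia, 4 of 10 vessel, 2 of 10 mesenchyme and 1 of 10 interneuron genes. For choroid plexus it was 1 of 8 and for oligodendrocytes 6 of 8, so most of these types were checked on few genes. Xist, transcribed from the inactive X of female cells, moved with stage. It was over 20 copies in 42M and 45O (13.21 and 13.03) and in 1 of 10 E16 IPs, 73A at 13.36, and 41G held the Y-linked Kdm5d at 11.68. In the other cells Xist was over in 19 of 27 at E11 and 2 of 18 at E16. The part of sex in the differences between stages was not tested.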

How the data were processed

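The deposited values are MAS5 signal intensities of 45101 Affymetrix probe sets on a linear scale, made by the authors as the submitters' processing notes and the methods state. They are not quantile normalized as deposited. All 68 arrays were quantile normalized together, as the methods name, and log2 transformed with no offset. Of the probe sets, 34958 had 1 gene symbol in the platform annotation, 932 several and 9211 were not in the table. Kept were 20721 probe sets at or above the 20-copy level (the median of the phe spike, 842) in at least 1 cell, and each gene was read on its brightest probe set by mean over 68 cells, giving 10789 genes. IP names follow the study's clustering. The members and gene lists were chosen with earlier results of these data known. Named genes are the 15 largest differences in each direction among those not overlapping, list members and temporal-axis genes. The contrast was checked on simulated data. The labels name no embryo, so cells are not known to be independent, and the number of arrays limits the precision. The step from deposited intensity to 20 copies assumes even amplification between cells. Python 3.11.15, numpy 2.4.6 and pandas 2.3.3 were used. Alternatives were the deposited scale, scaling to the lys spike, normalization of the E11 and E16 arrays alone, medians over cells, another level or filter, and each cell left out in turn.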

Additional observations from a re-analysis of the deposited data

Results flagged for a closer look

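Within the 10 E16 IPs, the 84 named genes and 15 summary scores, 99 in all, were searched for a cell far from the other 9. In 13 genes the gap between the outermost cell and the next, as a share of the range, was above Dixon's critical value for 10 samples. None of the 15 scores passed that value. Its rate of about 1 in 20 by chance holds for normal values that were not selected. The 84 genes were picked on stage differences in these same cells, so the count of 13 cannot be set against that rate. In 12 of the 13 the cell was the lowest, and a low cell itself helps a gene to be called lower.

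Cell 76J was lowest in Ccnd2 (7.29, next 10.64), Kpnb1 (4.14, next 8.14), Rbpj (1.99, next 7.41) and Rrm1 (1.71, next 8.86), all on the log2 scale. Cell 72J was lowest in Gadd45g (4.14, next 9.83) and Hmgb2 (5.84, next 10.20), and highest in Nhlh2 (8.51, next 3.55). Cell 75A was lowest in Hsp90b1 (-1.11, next 6.45) and Plxna2 (3.29, next 8.83), and 76C in Elavl2 (-0.98, next 9.25) and Nfia (2.91, next 11.31). Ccng2 was lowest in 82H (3.20, next 10.51) and Dpysl3 in 82P (4.26, next 8.76). The 3 E11 IPs are too few for this search.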

How the results depend on the processing

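No paired analysis was possible because the labels give single cells no replicate numbers that the stages share. The limits are 3 early cells, names taken from the same arrays, and signals under the 20-copy level, which carry no order. Over the alternatives, 794 values of summary results were counted as the same, 40 as moved and 2 as reversed. A list median counted as the same if it moved by less than the SD between cells, even where its sign changed. Leaving out each cell in turn gave medians of -0.87 to 1.14 for upper-layer genes and -0.55 to 0.23 for Notch genes. Of 1870 values of 85 named genes, 1843 kept direction and size, 22 moved and 5 reversed. In the signals as deposited, 22 genes were lower without overlap, and after scaling to the 1000-copy spike 19 were higher. With medians over cells, 279 genes were higher past the fold (107 of the 173 shared), the lower G2/M, Notch and G1/S calls were 11, 3 and 3, and Ccnd2, Rrm1 and Sox2 turned to -0.223, 0.228 and 0.0123. With signals raised to the level first, 281 were lower past the fold, 13 higher without overlap, and list medians were IP -0.75, AP 0.14, Cajal-Retzius 0.00, heterochronic -0.14, temporal early -0.52 and late 0.65, nuclear factor I 1.35 and late AP probe sets 0.18; G2/M calls were 9, neuronal 3, G1/S 2, and Ccnb2 turned to 0.0828. With probe sets over in 2 IPs, the Cajal-Retzius median was -2.0285 and the Notch median -0.99. With the level doubled, 58 genes were higher and 173 lower past the fold, 22 higher without overlap, and G2/M, Notch and G1/S calls were 10, 3 and 2. Except where a construction is named, the cause was not tested. Without the dim arrays 75A and 75O, chosen after seeing the data, no summary result moved.

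Leaving out each cell in turn gave 112 to 202 genes higher past the fold, 33 to 74 higher and 64 to 171 lower without overlap, 11 to 25 lower G2/M, 3 to 8 neuronal and 3 to 7 G1/S calls, medians of 3.07 to 6.94 for nuclear factor I and 0.19 to 1.57 for ERM and membrane scaffold genes, and -0.997 to 3.27 for Ccnd2. The non-overlapping counts rise by construction with fewer early cells. Without 41G, 112 genes were higher past the fold and 25 G2/M genes lower, and without 42M and 45O the nuclear factor I median was 3.07 and 6.94.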
